A study of Homo sapiens with 12 samples.

Results

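The NRAS segment of chromosome 1p was examined in FaDu and Cal27 cells selected for resistance to inhibitors of EGFR and its relatives. The segment was defined as the genes whose first counted position lay on chromosome 1 between 110211343 and 120400000 (GRCh38) and whose mean level over the 6 Cal27 libraries was at least 1 CPM, the gene's counts relative to all counts of the library. It held 57 of the 244 genes of that interval and of the 58051 genes counted in all. The interval was chosen by the measured difference between Cal27 erlotinib-resistant and Cal27 parental cells, in which its genes stood high, so values of that contrast are given as a description, without a test. The segment's 57 members were 51 protein-coding genes, 4 long noncoding RNAs and 2 pseudogenes, and 56 of them had a gene symbol.

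FaDu is a line of hypopharyngeal squamous cell carcinoma and Cal27 a line of tongue squamous cell carcinoma. From each, a population resistant to afatinib (AfaR), an inhibitor of the ERBB family, and a population resistant to erlotinib (ErlR), an inhibitor of EGFR, had been raised by stepwise increases of the drug. The 6 groups were FaDu parental, FaDu AfaR, FaDu ErlR, Cal27 parental, Cal27 AfaR and Cal27 ErlR, each with 2 biological replicates. The labels list all 12 libraries as wild type and under 1 batch. The wild-type label does not describe NRAS itself, in which the study lists 2 variants in Cal27 that it proposes may be activating. Poly(A) RNA from frozen cell pellets was sequenced with ERCC spike-ins. By the study's methods, resistant stocks were kept on drug and then left without it for a day before use. Each resistant group is 1 selected population, so its 2 libraries measure the spread between cultures of that population and not between independent selections.

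NRAS encodes a RAS protein, a small GTPase that switches between a GTP-bound active form and a GDP-bound inactive form. Active RAS passes signals from EGFR and other receptor tyrosine kinases to RAF, MEK and ERK and to PI3K, which in squamous carcinoma cells drive proliferation and survival. The segment also holds 2 relatives of NRAS, RAP1A, a RAS-like GTPase of cell adhesion, and RHOC, a small GTPase that controls the actin cytoskeleton and cell movement. Its other genes serve unrelated tasks such as RNA processing, ion transport and mitochondrial ATP synthesis.

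The segment is packed with genes that share start regions. NRAS (ENSG00000213281, chr1:114704469-114716894) lies on the minus strand. In 7 pairs of members the starts of opposite strands lay within 1000 bases of each other. The stretches below are shown because members around them moved together or apart: the 18 bases before NRAS, the stretch before RHOC, the stretch before SIKE1, a near neighbour of NRAS, the stretch before TSPAN2, and the gap that GDAP2 and WDR3 share. They were taken from RefSeq promoter windows (GRCh38.p14; 250 bases before to 50 after the start) and trimmed to bases outside every exon of the counted annotation and of GENCODE 44. Capitals mark a GC box (GGGCGG) or a CCAAT box (CCAAT) on either strand.
NRAS, chr1:114716895-114716912, minus strand: cctagcgctttcattatt
RHOC, chr1:112707435-112707658, minus strand: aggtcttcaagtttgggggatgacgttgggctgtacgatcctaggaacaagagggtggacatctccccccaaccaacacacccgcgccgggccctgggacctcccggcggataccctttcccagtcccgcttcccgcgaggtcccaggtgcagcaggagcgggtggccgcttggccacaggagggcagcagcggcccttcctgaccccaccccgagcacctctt
SIKE1, chr1:114780686-114780935, minus strand: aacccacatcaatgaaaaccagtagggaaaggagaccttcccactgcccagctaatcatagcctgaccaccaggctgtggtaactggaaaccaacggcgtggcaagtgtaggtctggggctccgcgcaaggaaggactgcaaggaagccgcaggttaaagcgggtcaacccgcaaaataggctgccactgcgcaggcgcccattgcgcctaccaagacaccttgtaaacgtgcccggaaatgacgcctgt
TSPAN2, chr1:115089504-115089753, minus strand: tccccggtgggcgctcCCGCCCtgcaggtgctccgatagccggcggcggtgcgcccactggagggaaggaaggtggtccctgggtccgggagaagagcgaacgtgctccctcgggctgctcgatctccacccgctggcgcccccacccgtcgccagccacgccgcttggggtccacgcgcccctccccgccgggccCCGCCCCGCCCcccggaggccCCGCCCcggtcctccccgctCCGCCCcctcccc
GDAP2 and WDR3, chr1:117929631-117929719, minus strand: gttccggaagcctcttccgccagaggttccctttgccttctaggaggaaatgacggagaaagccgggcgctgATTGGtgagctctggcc

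The stretch before TSPAN2 held 5 GC boxes, 2 of them overlapping, and 79.2% of its bases were G or C, against 56.8% before SIKE1. The shared gap of GDAP2 and WDR3 held a CCAAT box in its reverse form. Over the whole windows of 300 bases, 42 of the 57 members matched the RefSeq table by symbol. A GC box was found in 25 of the 42, or 59.5%, against 44.6% of all 27305 promoters in the table. A CCAAT box was found in 38.1% of members' windows and 35.7% of all. A TATA box (TATAAA) was found in 1 member's window, or 2.38% against 12.0% of all, and an ETS motif (CCGGAAGT) in 4.76% against 4.44%. These are matches of letters on both strands and were not tested. The members were limited to genes of at least 1 CPM in Cal27, and the promoters of the table were not.

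Libraries held between 16334937 and 23399259 counts on genes, and spike-ins took 3.86% to 5.82% of all counts. All 8 squamous epithelial markers examined were found in every group, the lowest group mean being 1.31 CPM for KRT14 in Cal27 AfaR. Among markers of other cell types, DCN and CD3E had group means of at most 0.126 CPM. Cal27 AfaR stood apart, with a lower mean than Cal27 parental for 8 of 8 epithelial markers, whose sum ranged from 1061 to 1184 CPM in its 2 libraries against 4297 to 5232 CPM in Cal27 parental and 4960 to 5088 CPM in Cal27 ErlR. The 4 fibroblast markers summed to 293 to 298 CPM in Cal27 AfaR, 29.7 to 41.3 CPM in Cal27 parental and 4.28 to 9.75 CPM in Cal27 ErlR, most of it COL1A1. The 3 endothelial markers, most of it CDH5, summed to 32.6 to 33.9 CPM in Cal27 parental, 31.0 to 38.8 CPM in Cal27 AfaR and 2.53 to 6.15 CPM in Cal27 ErlR, and the 4 immune markers to between 3.03 and 6.35 CPM in Cal27. The part of these shifts in the values below was not tested.

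In Cal27 ErlR the segment as a whole stood at more than 3 times its parental level. Summed over the 57 members, the level (CPM scaled by the TMM method within each line) was 5120 and 5034 in the 2 Cal27 parental libraries, 5085 and 5322 in Cal27 AfaR, and 18050 and 16917 in Cal27 ErlR. The mean of Cal27 ErlR was 17483 ± 801 against 5077 ± 60.9 in parental cells (SD, n = 2), a ratio of 3.44. The members took 0.507% to 0.513% of all gene counts in Cal27 parental libraries and 1.65% to 1.68% in Cal27 ErlR libraries.

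**Figure D1:**
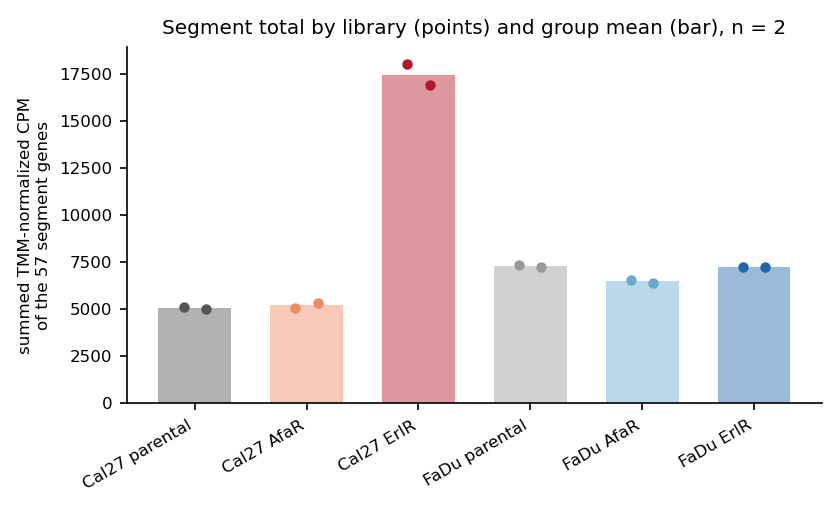
Summed TMM-normalized CPM of the 57 segment genes (vertical axis) in each library (points) with the group mean (bar, n = 2), for the 6 groups (horizontal axis). The 2 Cal27 ErlR libraries stand at 18050 and 16917 CPM, and the other 10 libraries lie between 5034 and 7331 CPM. The 2 lines were normalized separately.

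Member by member, the log2 fold change between Cal27 ErlR and Cal27 parental had a median of 1.56, with quartiles of 0.92 and 1.99, and 55 of 57 values were over 0. The median over all 15269 genes tested in Cal27 was -0.03, and over the 1321 other genes of chromosome 1 with at least 1 CPM it was -0.11. In 42 members the log2 fold change was over 1 with both ErlR libraries above both parental libraries, a pattern that 4.94% of all genes tested showed in that direction. Both ErlR libraries were above both parental libraries in 53 members (32.4% of all genes), both were below in 2, KCNC4 and TSPAN2 (34.8% of all genes), and the libraries overlapped in 2, one of them CD53. TSPAN2 was the 1 member under -1 on the log2 scale with both libraries below, as were 13.9% of all genes. Medians were also taken over the 4 pairs of 1 ErlR and 1 parental library, as log2 ratios of CPM with 0.5 added to each. They ran from 1.62 to 1.65. This measure differs from the fitted one above, and the pairs share libraries.

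NRAS itself measured 130.2 and 123 CPM in the Cal27 parental libraries, 134 and 163 CPM in Cal27 AfaR, and 675 and 619.6 CPM in Cal27 ErlR. Both ErlR libraries were thus far above all 4 other Cal27 libraries. The log2 fold change in Cal27 ErlR was 2.35 (standard error 0.146), a 5.12-fold difference. Per kilobase of counted length, NRAS stood at 28.5 CPM in Cal27 parental cells, rank 9 of the 57 members, and at 146 CPM in Cal27 ErlR, rank 8.

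The other 2 small GTPase genes were raised by a similar amount in Cal27 ErlR. RAP1A (ENSG00000116473, chr1:111542218-111716691, plus strand) measured 77.7 and 71.0 CPM in Cal27 parental, 71.3 and 80.6 in Cal27 AfaR, and 291 and 279 in Cal27 ErlR. RHOC (ENSG00000155366, chr1:112701106-112707434, minus strand) measured 148 and 123 CPM in Cal27 parental, 228 and 244 in Cal27 AfaR, and 587 and 482 in Cal27 ErlR. Neither gene's ErlR libraries overlapped any other Cal27 library. Log2 fold changes in Cal27 ErlR were 1.94 (standard error 0.131) for RAP1A and 1.98 (0.156) for RHOC. DENND2C and DENND2D, exchange factors for RAB GTPases, complete this group of 5, of which 5 had a log2 fold change over 1.

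Genes next to NRAS were also above their parental level, each by less than NRAS. On one side, SIKE1, a suppressor of the kinase IKKε, went from 53.0 and 47.4 CPM in Cal27 parental to 152 and 144 in Cal27 ErlR. On the other side, DENND2C had 4.50 and 2.90 CPM against 16.6 and 11.5, and BCAS2, a subunit of the spliceosome, had 64.9 and 59.5 CPM against 265 and 252. For none of these 3 genes did the ErlR and parental libraries overlap. The log2 fold changes were 1.56 for SIKE1, 1.92 for DENND2C and 2.05 for BCAS2, with standard errors of 0.130, 0.343 and 0.136.

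**Figure D2:**
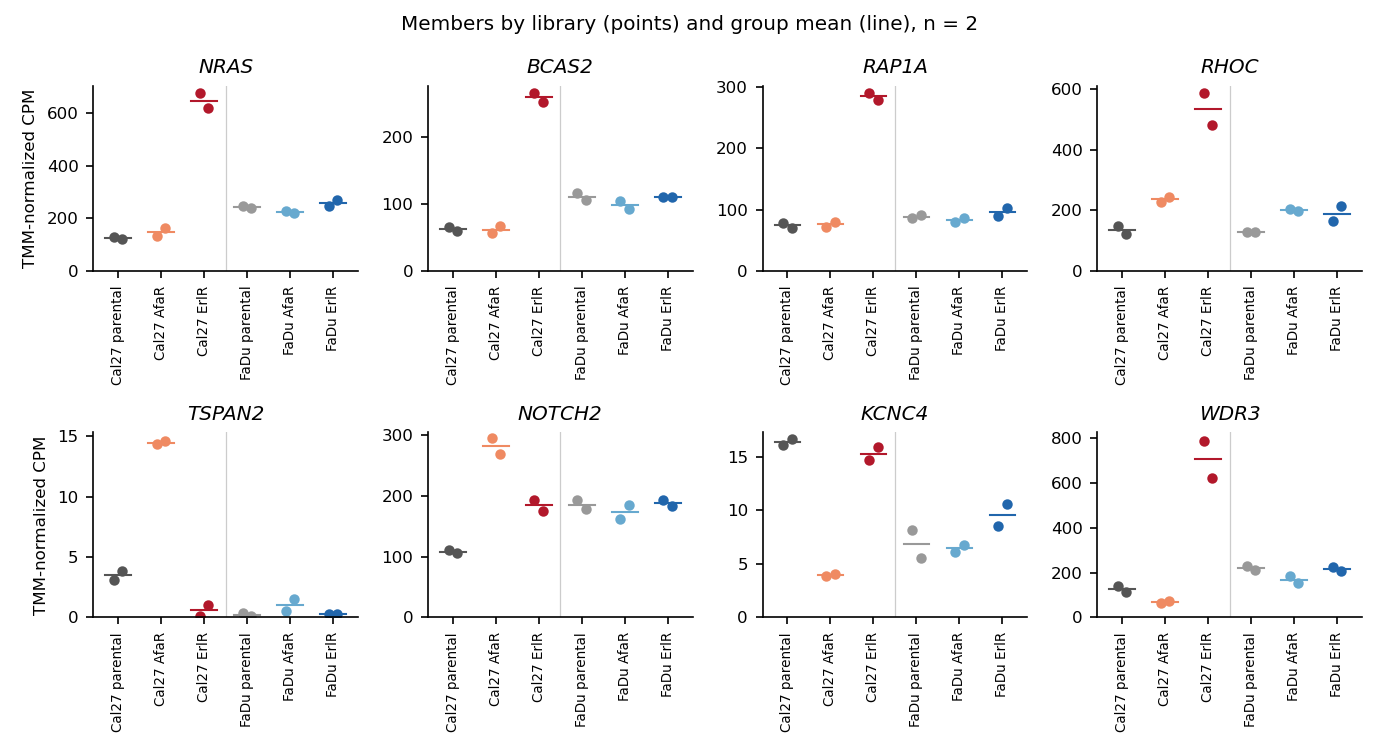
TMM-normalized CPM (vertical axes, from 0) of NRAS, BCAS2, RAP1A, RHOC, TSPAN2, NOTCH2, KCNC4 and WDR3 in each library (points) with the group mean (line, n = 2) for the 6 groups. NRAS, BCAS2, RAP1A, RHOC and WDR3 are highest in Cal27 ErlR, whereas TSPAN2 and NOTCH2 are highest in Cal27 AfaR and KCNC4 is lowest there. The 2 lines were normalized separately.

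The largest differences in Cal27 ErlR among members of at least 5 CPM were those of ZNF697, WDR77, WDR3, NRAS, GDAP2 and DDX20. ZNF697, a zinc finger protein near the far end of the segment, measured 6.78 and 4.17 CPM in Cal27 parental and 48.5 and 31.1 in Cal27 ErlR, a log2 fold change of 2.86 (standard error 0.291). WDR77, the partner of the arginine methyltransferase PRMT5, measured 81.6 and 65.1 CPM against 452 and 426. WDR3, a factor of ribosome assembly in the nucleolus, measured 142 and 114 CPM against 788 and 622. The separation was wide in each, the lower ErlR library being several times the higher parental one. GDAP2 followed with a log2 fold change of 2.25 (standard error 0.155), after WDR77 with 2.58 (0.188) and WDR3 with 2.46 (0.174). DDX20, an RNA helicase of the SMN complex, had 37.4 and 34.7 CPM in Cal27 parental and 173 and 140.4 in Cal27 ErlR, a log2 fold change of 2.12 (0.153).

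The smallest, among members of the same level, were those of TSPAN2, KCNC4, SEC22B, MOV10, RBM15 and DRAM2. TSPAN2 (ENSG00000134198, chr1:115048011-115089500, minus strand), a tetraspanin of the cell membrane, was the one member well below its parental level although it starts 0.34 Mb from NRAS. It measured 3.12 and 3.87 CPM in Cal27 parental, 14.4 and 14.6 in Cal27 AfaR, and 0.130 and 1.06 in Cal27 ErlR, the last from 2 and 17 counts. Its log2 fold change of -2.53 (standard error 0.548) moved between -4.64 without Cal27 ErlR replicate 2 and -1.71 without Cal27 ErlR replicate 1. KCNC4, a voltage-gated potassium channel and the first gene of the segment, measured 16.1 and 16.6 CPM in Cal27 parental and 14.7 and 15.9 in Cal27 ErlR. RBM15, which recruits the enzymes of RNA adenosine methylation, had 21.3 and 22.2 CPM against 28.9 and 29.4, and MOV10, an RNA helicase, had 118 and 126 against 131 and 193. DRAM2, a lysosomal membrane protein, had 24.1 and 43.2 CPM against 55.9 and 58.6, with a log2 fold change of 0.77 (0.234) that reached 1.26 without Cal27 parental replicate 2.

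Along the chromosome, the raised level covered the middle of the segment with few gaps. In windows of 1 Mb, the median log2 fold change in Cal27 ErlR was 0.63 over the 6 members from 110 to 111 Mb, none of them over 1, and 1.51 over the next 9, of which 8 were over 1. It was 1.82, 1.85 and 1.99 in the 3 following windows, with 6 of 8, 7 of 7 and 6 of 6 members over 1. The window from 115 to 116 Mb held 3 members, among them TSPAN2 and VANGL1, and had a median of 0.44, with VANGL1, a protein of planar cell polarity named here after its value was seen, at 1.97. From 116 Mb the medians were 1.50 and 2.06, the window from 118 to 119 Mb had no member, and the window from 119 to 120 Mb had a median of 1.53. The last 2 members, SEC22B and a pseudogene without a symbol, had a median of 0.44.

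The ends of the segment were less raised than its middle. NOTCH2, a NOTCH receptor, measured 110.2 and 106 CPM in Cal27 parental and 194 and 176 in Cal27 ErlR, a log2 fold change of 0.77 (standard error 0.126). SEC22B, a SNARE protein of transport between the endoplasmic reticulum and the Golgi, measured 85.2 and 97.6 CPM against 123 and 106. Both genes are known to have close copies on chromosome 1, how reads shared with copies were counted is not given in the sources used here, and the share of such reads was not measured. Just outside, on the side before KCNC4, AHCYL1 stood at -0.13 and CSF1 at -1.46 on the log2 scale. On the far side NBPF8, PDE4DIPP2 and NBPF26 had log2 fold changes of 0.50, 0.77 and 0.06. At the level limit, NAP1L4P1 lay just inside with 1.42 CPM, and CD101 and LINC01356 just outside with 1.00 and 0.979 CPM. Of the members, NAP1L4P1 alone would have missed the limit without the ErlR libraries.

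**Figure D3:**
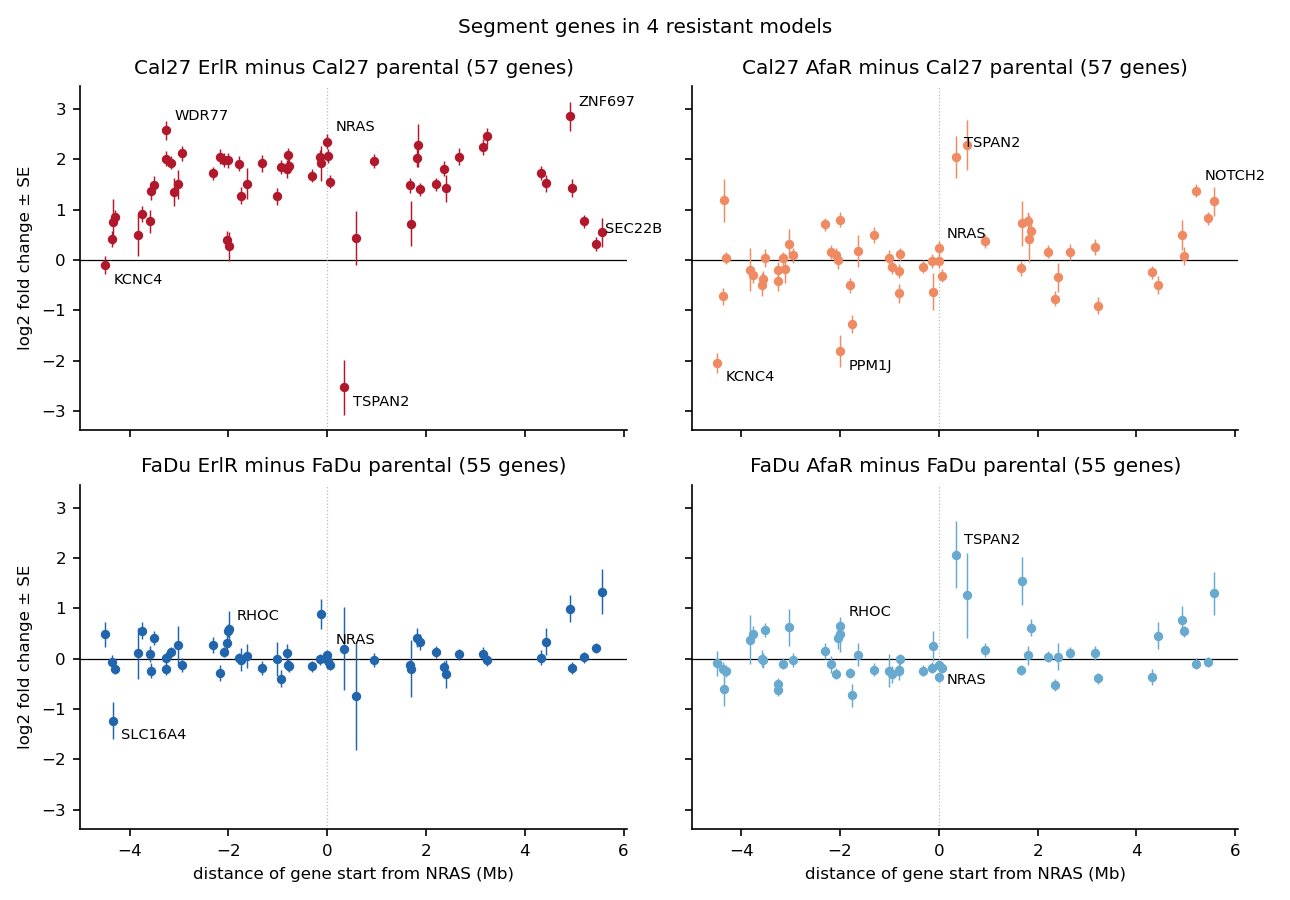
Log2 fold change with its standard error (vertical axis) of each segment gene against its parental line, by distance of its first counted position from that of NRAS in Mb (horizontal axis), in 4 panels for Cal27 ErlR, Cal27 AfaR, FaDu ErlR and FaDu AfaR. In Cal27 ErlR 55 of 57 genes lie over 0 with a median of 1.56, and in the other 3 models the medians are 0.04, 0.02 and -0.03.

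Beyond the segment the difference declined unevenly. In bins of 5 Mb counted from NRAS, the median log2 fold change in Cal27 ErlR over all chromosome 1 genes of at least 1 CPM was 1.50 in the bin before NRAS and 1.74 in the bin behind it, which hold most of the members. The 4 bins farther before were at 0.86, 1.04, 0.39 and 0.79, and the next one stood at -0.26. The bin from 5 to 10 Mb behind NRAS, which holds the last members of the segment, was at 0.47 over 11 genes. Every bin farther than 25 Mb before NRAS had a median between -0.67 and -0.02, and the bins from 25 Mb behind it onward lay between -0.08 and 0.38.

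**Figure D4:**
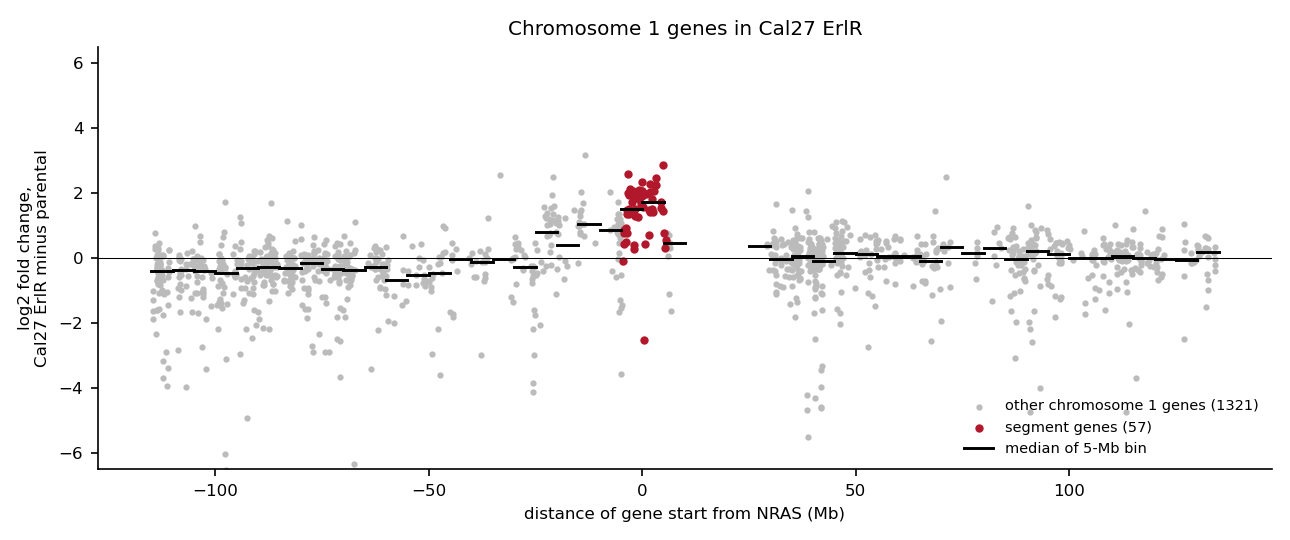
Log2 fold change between Cal27 ErlR and Cal27 parental (vertical axis) of 57 segment genes (red) and 1321 other chromosome 1 genes (grey) by distance from NRAS in Mb (horizontal axis), with the median of each 5-Mb bin as a black line. The bins on either side of NRAS are at 1.50 and 1.74, and 5 genes beyond 6.5 in size lie outside the axis.

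The raised level was spread over all roles that the segment's genes serve. Of 8 genes of RNA binding, processing and translation, 6 had a log2 fold change over 1 in Cal27 ErlR (median 1.93), and of 7 genes of transcription, chromatin and genome maintenance, 6 did (median 1.85), among them HIPK1, a nuclear kinase, and TRIM33, a ubiquitin ligase. Of 8 cell surface and polarity genes, 6 did (median 1.51), the other 2 being TSPAN2 and CD53. CAPZA1, which caps actin filaments, measured 309 and 291 CPM in Cal27 parental and 1275 and 1107 in Cal27 ErlR, and 3 of the 4 genes of the cytoskeleton and membrane traffic had a value over 1.

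Transporters and metabolic enzymes of high level took part as well. ATP5PB, a subunit of mitochondrial ATP synthase, measured 279 and 232 CPM against 1001 and 1066, a log2 fold change of 2.02 (standard error 0.148). PHGDH, the first enzyme of serine synthesis, measured 126 and 121 CPM against 286 and 382, and PTGFRN, a membrane protein of the immunoglobulin superfamily, 289 and 279.6 CPM against 791 and 827. In each the 2 ErlR libraries stood clear of the parental ones. Of 4 transporters and channels, 2 were over 1, among them SLC16A1, the lactate carrier MCT1, while KCNC4 and SLC16A4 were not.

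The difference was present in members of high and of low level. The 35 members of at least 20 CPM in Cal27 parental had a median log2 fold change of 1.74 in Cal27 ErlR and values from 0.32 to 2.58. In all 35 both ErlR libraries stood above both parental ones, as in 32.4% of all genes tested. The 22 members under 20 CPM had a median of 1.47 and values from -2.53 to 2.86, and in 18 of the 22 both ErlR libraries stood above both parental ones. Over the 57 members, Spearman's rho was 0.31 between the fold change and the log2 parental level and 0.10 between the fold change and the counted length, as a description over genes of the same libraries. In all 7 pairs of opposite members with neighbouring starts, both genes had a value over 0, from 0.77 in DRAM2 to 2.58 in WDR77. In 6 of these pairs the counted regions overlap, and whether the counting used strand is not given in the sources used here.

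In Cal27 AfaR, the other resistant population of the line, the segment as a whole stayed at its parental level while single genes moved in both directions. This comparison uses the same 2 parental libraries as the one that chose the members. The median log2 fold change was 0.04, between quartiles of -0.31 and 0.37, against 0.00 for all genes tested, and the summed level was 5204 ± 168 CPM against 5077 ± 60.9 (SD, n = 2). By edgeR's quasi-likelihood test, at a Benjamini-Hochberg adjusted p under 0.05 and more than a 2-fold difference, 4 of 57 members rose (11.5% of all genes tested) and 3 fell (8.06%). At the adjusted p alone, 10 rose (19.5% of all genes) and 9 fell (18.2%). Both AfaR libraries were above both parental libraries in 20 members (36.2% of all genes) and below in 18 (36.0%). Beside these counts, Cal27 AfaR had the low epithelial and high COL1A1 levels given above.

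TSPAN2 rose by 2.05 on the log2 scale with a standard error of 0.420 (adjusted p = 0.00461) from the levels given above, with both AfaR libraries above 14 CPM. NOTCH2 rose from 110.2 and 106 CPM to 295 and 269, a log2 fold change of 1.38 (0.128, adjusted p = 5.63e-05). Both genes were thus higher in Cal27 AfaR than in any other Cal27 library. Another gene that rose past both limits was the pseudogene ENSG00000223804 at the far end of the segment (log2 fold change 1.17, adjusted p = 0.0102), whose neighbour SEC22B rose by 0.83 (adjusted p = 0.00137) from 85.2 and 97.6 to 165 and 159.5 CPM.

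KCNC4 fell from 16.1 and 16.6 CPM to 3.87 and 4.07, by 2.04 on the log2 scale with a standard error of 0.197 (adjusted p = 7.36e-05). PPM1J, a serine/threonine phosphatase, fell from 5.22 and 4.90 CPM to 1.74 and 1.14, by 1.81 on the log2 scale (adjusted p = 0.00218). The noncoding SLC16A1-AS1, which starts beside SLC16A1 on the other strand, fell from 20.1 and 16.5 CPM to 7.91 and 7.24 (log2 fold change -1.27, adjusted p = 0.000716). In all 3 the 2 AfaR libraries lay below both parental libraries by more than the spread within either group. WDR3 fell by 0.91 on the log2 scale (adjusted p = 0.00279), to 63.6 and 72.9 CPM, and RBM15 by 0.72 (adjusted p = 0.00786), to 14.5 and 11.9 CPM. NRAS, with a log2 fold change of 0.23 (standard error 0.140), did not pass the test (adjusted p = 0.217). The call of ENSG00000223804 was lost without Cal27 parental replicate 2 (adjusted p = 0.0603) and that of RBM15 without Cal27 AfaR replicate 2 (0.0632). ENSG00000223804 and SLC16A1-AS1 are named after their values were seen.

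FaDu cells served as samples that had no part in choosing the segment, and there its total did not rise with resistance. Summed over the members, FaDu parental libraries had 7331 and 7227 CPM, FaDu AfaR 6576 and 6392, and FaDu ErlR 7255 and 7258. The FaDu AfaR libraries lay below the parental ones, at a ratio of 0.891, and the FaDu ErlR libraries lay between them, at a ratio of 0.997. Of the members, 55 could be tested in FaDu, as LINC01160 and NAP1L4P1 had too few counts. The median log2 fold change was -0.03 in FaDu AfaR and 0.02 in FaDu ErlR, against 0.00 over all genes tested in both.

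No member passed both limits in FaDu. In FaDu AfaR 0 of 55 rose (6.48% of all genes tested) and 0 fell (0.954%) by edgeR's test, although 19 had an unadjusted p under 0.05, and DESeq2 also gave 0. Without FaDu AfaR replicate 1 there was 1 call, TSPAN2, higher. In FaDu ErlR 0 rose (1.54%) and 0 fell (0.504%), with 8 at an unadjusted p under 0.05, and DESeq2 gave 1, ZNF697. At the adjusted p alone, 4 members rose (10.4% of all genes) and 5 fell (7.5%) in FaDu AfaR, and 1 rose (2.58%) and 0 fell (1.6%) in FaDu ErlR. Both AfaR libraries were above both parental libraries in 15 members (32.7% of all genes) and below in 24 (32.8%), and both ErlR libraries were above in 16 (26.8%) and below in 14 (27.1%).

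RHOC was the member that passed the adjusted p in both FaDu models as well as in Cal27 AfaR. It measured 127 and 129 CPM in FaDu parental, 205 and 197 in FaDu AfaR, and 164 and 214 in FaDu ErlR. Every resistant library of either line was above every parental library of its line. The rise of RHOC in FaDu AfaR was 0.65 as a log2 value (standard error 0.132, adjusted p = 0.0141), that in FaDu ErlR 0.56 (0.132, adjusted p = 0.0494) and that in Cal27 AfaR 0.80 (0.152, adjusted p = 0.00311), all by edgeR's quasi-likelihood test. The call in FaDu ErlR was lost with the replicate number as a block (adjusted p = 0.0653), with the 4 libraries compared alone (0.0539) and without any one of FaDu parental replicates 1 and 2, FaDu AfaR replicates 1 and 2 and FaDu ErlR replicate 2 (adjusted p from 0.0520 to 0.260). The call in FaDu AfaR was lost without FaDu parental replicate 1 (0.121) or replicate 2 (0.0757).

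NRAS measured 246 and 241 CPM in FaDu parental, 229.6 and 219 in FaDu AfaR, and 247 and 269 in FaDu ErlR. The AfaR libraries lay just below and the ErlR libraries just above the parental ones. The log2 fold changes were -0.12 in FaDu AfaR (standard error 0.100, adjusted p = 0.425) and 0.08 in FaDu ErlR (0.100, adjusted p = 0.703), and neither passed the test. With scaling by the spike-ins, which moved the median of all genes by 0.18 in FaDu AfaR and 0.49 in FaDu ErlR, NRAS was at 0.06 in FaDu AfaR and at 0.57 in FaDu ErlR, where it then passed edgeR's test (adjusted p = 0.0085). RAP1A kept between 80.3 and 103 CPM in all 6 FaDu libraries.

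The other members that rose in FaDu AfaR at the adjusted p were PHGDH, DENND2D and IGSF3, and those that fell were WDR77, TTF2, ATP5PB and WDR3, beside 1 more gene. DENND2D, IGSF3 and TTF2 are named after their values were seen. PHGDH rose from 247 and 284 CPM to 413 and 362 (log2 fold change 0.54, adjusted p = 0.0174), DENND2D by 0.56 (0.0269) and IGSF3, an immunoglobulin superfamily protein, by 0.62 (0.0306). WDR77 fell from 130.0 and 118 CPM to 84.6 and 76.6, by 0.62 on the log2 scale (adjusted p = 0.0103), and its opposite partner ATP5PB fell from 422 and 403 CPM to 319.6 and 264, by 0.50 (0.0236). Each of these differences was under 2-fold. TTF2, a termination factor of transcription, fell by 0.52 (0.0241) and WDR3 by 0.39 (0.0482). The calls of PHGDH, DENND2D, IGSF3, WDR77, TTF2, ATP5PB and WDR3 were lost without FaDu parental replicate 1 (adjusted p from 0.109 to 0.269), and those other than WDR77 also without FaDu parental replicate 2 (0.0546 to 0.138). Without FaDu AfaR replicate 2 the calls of WDR77, ATP5PB, WDR3, DENND2D and IGSF3 were lost, without FaDu AfaR replicate 1 those of DENND2D and TTF2, and without either FaDu ErlR library that of WDR3. WDR3 also did not pass with upper-quartile factors (0.0882), with at least 10 counts in every library (0.0559) or with the 4 libraries compared alone (0.0649). With spike-in scaling, WDR77, TTF2, ATP5PB and WDR3 did not pass (0.0837 to 0.412). TSPAN2 had few counts in FaDu, with 0.332 and 0.153 CPM in parental and 0.564 and 1.50 in AfaR, and its log2 fold change of 2.07 did not pass (adjusted p = 0.0612). In FaDu ErlR the lowest value was that of SLC16A4, a relative of the monocarboxylate carriers, at -1.23 on the log2 scale (adjusted p = 0.0935), from 2.13 and 2.44 to 1.06 and 0.887 CPM.

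The effect of afatinib resistance differed between the lines in 4 members, by a test of the difference itself in 1 fit of all 12 libraries. The log2 fold change in FaDu minus that in Cal27 was higher in 2 of 57 members (7.57% of all genes tested) and lower in 2 (4.76%). By edgeR's test the difference was 2.32 for PPM1J (adjusted p = 0.00391) and 1.98 for KCNC4 (0.000949), and both genes fell in Cal27 AfaR. Of these 4 the call of SLC16A4 was lost with DESeq2 (adjusted p = 0.0596), with the replicate block (0.0516) and without any one of Cal27 parental replicate 1, Cal27 AfaR replicate 2, either FaDu parental library or either FaDu AfaR library (0.0617 to 0.110). In FaDu, PPM1J measured 1.38 and 1.68 CPM in parental and 1.74 and 2.53 in AfaR, and KCNC4 8.16 and 5.55 against 6.11 and 6.81. For NOTCH2 the difference was -1.46 (adjusted p = 7.09e-05), with 193 and 178 CPM in FaDu parental against 162 and 185 in FaDu AfaR. For SLC16A4 it was -1.78 (adjusted p = 0.0283), with 0.720 and 1.03 CPM in Cal27 parental against 1.74 and 2.27 in Cal27 AfaR, and 2.13 and 2.44 CPM in FaDu parental against 1.46 and 1.54 in FaDu AfaR. The corresponding difference for erlotinib resistance was not tested, since one side of it chose the members.

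Genes outside the segment that act with NRAS were read from 2 lists, 29 genes of the RAS to ERK core, of which 28 could be tested, and 15 genes whose transcription ERK drives. Both lists were drawn up with earlier results of these data known. Their counts in the 4 models are therefore a description, and ERK activity was not tested. In Cal27 ErlR 9 core genes rose and 2 fell at an adjusted p under 0.05, against 12.3% and 15.3% of all genes tested, and 13 of the 15 ERK output genes rose and 0 fell, with a median log2 fold change of 1.01. DUSP6, a phosphatase that ERK induces to limit its own activity, went from 19.9 and 15.7 CPM in Cal27 parental to 78.4 and 73.9 in Cal27 ErlR (log2 fold change 2.09, adjusted p = 8.33e-05), and SPRY4, an inhibitor of receptor signalling, from 4.02 and 3.69 to 29.5 and 19.7 CPM (2.67, 0.000203). HRAS, a close relative of NRAS, rose from 73.8 and 52.2 to 114 and 101 CPM (0.77, 0.0126). These 3 genes are named after their values were seen, and the contrast is the one in which the segment was chosen. The 24 calls over both lists became 15 without Cal27 parental replicate 2 or without Cal27 ErlR replicate 1.

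The counts of ERK output genes in the other models were as follows. In Cal27 AfaR 4 rose and 5 fell, in FaDu AfaR 0 rose and 7 fell, and in FaDu ErlR 1 rose and 2 fell, while of the core genes 5 rose and 3 fell, 2 rose and 0 fell, and 2 rose and 0 fell in the same order. The background was 19.5% higher and 18.2% lower in Cal27 AfaR, 10.4% and 7.5% in FaDu AfaR, and 2.58% and 1.6% in FaDu ErlR. The 17 calls over both lists in Cal27 AfaR became 11 without Cal27 AfaR replicate 1. The 9 calls in FaDu AfaR became 3 without FaDu parental replicate 1 or without FaDu AfaR replicate 2. The 5 in FaDu ErlR became 3 without either FaDu AfaR library or with the replicate block, and 0 without either FaDu parental library or without FaDu ErlR replicate 2. Median log2 fold changes of the output genes were -0.38, -0.69 and -0.01 in these 3 models.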

How the data were processed

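RNA from FaDu and Cal27 cells was measured in 12 libraries, 2 per group. Per the submitters' processing notes, the authors trimmed reads with Trimmomatic 0.36, aligned them to GRCh38 with STAR 2.5.2b and counted them per gene with featureCounts from Subread 1.5.2. The annotation release and the strand setting are not given in the sources used here. The deposited values are raw counts per gene, 58051 genes and 92 ERCC spike-ins. Libraries held 16334937 to 23399259 gene counts (median 16584450), and low counts limit members near 1 CPM.

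From these counts, edgeR 4.0.16 in R 4.3.3 was run in each line on its 6 libraries (filterByExpr, TMM, quasi-likelihood test, Benjamini-Hochberg adjustment over all genes tested, 15269 in Cal27 and 15092 in FaDu), leaving 3 residual degrees of freedom. The difference of afatinib effects was tested over all 12 libraries (16240 genes). Standard errors were taken as the size of the log2 fold change divided by the square root of the test's F statistic. Alternatives were DESeq2 1.42.0, upper-quartile and ERCC scaling, other count filters, a replicate block, the compared libraries alone, a 5 CPM limit and leaving out each library. The edgeR test was tried on simulated counts, and the other steps were not. The members and the lists of genes were chosen with earlier results of these data known. Named were NRAS, RAP1A and RHOC, the 4 genes next to NRAS, the 6 largest and 6 smallest values in Cal27 ErlR at 5 CPM or more, up to 5 calls per comparison, the 3 members nearest each end, the 5 of highest Cal27 parental level and those at the level limit. Some genes that this rule or the lists take in are not reported here. Others are said to be named after their values were seen. Nothing shows that the 2 replicates came from separate selections, so p-values measure the spread between these cultures.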

Additional observations from a re-analysis of the deposited data

Results flagged for a closer look

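In 4 members the effect of afatinib resistance differed between the lines by the interaction test of edgeR over all 12 libraries. The difference was higher in 2 of 57 members, against 7.57% of all genes tested, and lower in 2, against 4.76%. Subtracting the Cal27 value from the FaDu value on the log2 scale left 2.32 for PPM1J, 1.98 for KCNC4, -1.46 for NOTCH2 and -1.78 for SLC16A4. KCNC4 and PPM1J were lower in both Cal27 AfaR libraries than in both Cal27 parental libraries, and NOTCH2 was higher in both. SLC16A4 had at most 2.44 CPM in any parental or AfaR library. Its call was lost with DESeq2 (adjusted p = 0.0596), with edgeR's replicate block (0.0516) and in several fits that left out a single library.

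NRAS was lower in both FaDu AfaR libraries than in both FaDu parental libraries, with a log2 fold change of -0.12, and higher in both Cal27 AfaR libraries than in both Cal27 parental libraries, with 0.23. Neither value passed edgeR's test (adjusted p = 0.425 and 0.217). By the interaction test the difference of -0.33 did not pass either (adjusted p = 0.192).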

How the results depend on the processing

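In Cal27 ErlR the median log2 fold change of the members, 1.56, was 1.58 with DESeq2, 1.50 with upper-quartile factors, 1.58 with no filter on low counts, 1.59 with at least 10 counts in every library, 1.59 with ERCC scaling and 1.74 with a limit of 5 CPM. Leaving out single libraries gave 1.58 to 1.69, and 42 to 45 members higher. With the limit of 5 CPM, calls in Cal27 AfaR were 4 and the median -0.0043, and the count of differences between lines was 2. Single libraries left out gave 7 to 8 calls, medians of -0.048 to 0.037 and 3 to 4 differences. In FaDu AfaR there were 3 calls with no filter and 1 with the 4 libraries alone, and medians of 0.040 with upper-quartile factors, 0.15 with ERCC scaling and -0.090 at 5 CPM. Leaving out libraries gave 0 to 1 calls and medians of -0.10 to -0.039. In FaDu ErlR DESeq2 gave 1 call, ERCC scaling a median of 0.52, and left-out libraries medians of -0.031 to 0.040. ERCC scaling moved the median of all genes by 0.18 in FaDu AfaR and 0.49 in FaDu ErlR. With it NRAS was at 0.57 in FaDu ErlR (adjusted p = 0.0085), and values in FaDu AfaR turned to 0.062 for NRAS, 0.10 for KCNC4 and 0.086 for NOTCH2. Over left-out libraries KCNC4 there ran from -0.34 to 0.21, the latter without FaDu parental replicate 1. The cause of these changes was not tested.

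Pathway calls in FaDu ErlR were 14 with no filter and 3 with the 4 libraries alone. Over left-out libraries, pathway calls ranged from 11 to 18 in Cal27 AfaR, 15 to 23 in Cal27 ErlR, 3 to 11 in FaDu AfaR and 0 to 5 in FaDu ErlR. Replicate numbers were shared but did not pair the libraries, as deviations of same-numbered libraries correlated at -0.321 to 0.207. With the replicate block, pathway calls in FaDu ErlR were 3, and RHOC in FaDu ErlR (adjusted p = 0.0653) and SLC16A4 in the difference between lines (0.0516) no longer passed. The block changed no other call of a named member.

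Low counts limit SLC16A4, TSPAN2 in FaDu and members near 1 CPM, and 2 libraries per group limit every test.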
